A study of Mus musculus with 12 samples.

Results

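The genes described here encode the subunits of the receptors for glutamate and gamma-aminobutyric acid (GABA), the main excitatory and inhibitory transmitters of the cortex. They were every protein-coding gene whose symbol is that of an AMPA (Gria), NMDA (Grin), kainate (Grik), delta (Grid) or metabotropic glutamate (Grm) receptor subunit, or of a GABA-A (Gabr) or GABA-B (Gabbr) subunit. This rule took 47 of the 55901 genes of the table, 26 for glutamate and 21 for GABA receptors, and used no measured value. RNA was sequenced from primary cortical neurons of neonatal C57BL/6J mice, grown with arabinosylcytosine, a drug that limits the division of glial cells. The study's methods place all experiments at day 8 to 10 in culture. The Control cultures were uninjured. The Trauma cultures were scratched mechanically and collected 24 h later, and the Tra_TGF cultures were scratched and kept for the same 24 h with TGF-β1 at 10 ng/mL. No uninjured culture received TGF-β1, so its effect was measured on injured neurons alone. Each group had 4 libraries, and the labels do not say whether these came from separate cultures, so p-values measure the spread between these libraries, which may be technical.

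Glutamate and GABA each act on fast and slow receptors. AMPA, NMDA and kainate receptors are tetrameric cation channels that depolarize the neuron, and GABA-A receptors are pentameric chloride channels usually built from alpha and beta subunits with a gamma or delta subunit. Metabotropic glutamate receptors and the GABA-B receptor signal through G proteins and adjust release and excitability on a slower scale. Subunit composition sets the properties of the channel: Gria2 makes AMPA receptors largely impermeable to calcium, and NMDA receptors carry much of the calcium entry that has been studied in neuronal injury.

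Promoters of 4 genes are shown because these genes had opposite directions in the comparisons below: Gria2 and Gabra2 were called higher and Gabbr1 lower in Tra_TGF against Trauma, and Grin2d was called lower in Tra_TGF against Control alone. Each is 300 bases of the mouse genome (RefSeq, GRCm38.p6), from 250 bases before to 50 bases after an annotated start, written 5′ to 3′ on the gene's strand. Capitals mark, on either strand, the GC box (GGGCGG, the usual Sp1 letters), the right part of the RE1 element read by the repressor REST (GGACAGCG), and the core letters read by SMAD proteins, the transcription factors of TGF-β signalling (CAGAC).
Gria2, chr3:80802786-80803085, minus strand: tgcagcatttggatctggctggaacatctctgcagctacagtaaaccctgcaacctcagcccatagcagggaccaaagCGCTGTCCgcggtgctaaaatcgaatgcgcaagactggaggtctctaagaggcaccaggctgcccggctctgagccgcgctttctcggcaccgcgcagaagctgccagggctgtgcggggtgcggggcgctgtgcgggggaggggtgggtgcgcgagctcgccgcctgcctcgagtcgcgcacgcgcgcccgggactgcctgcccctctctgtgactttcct
Gabra2, chr5:71095800-71096099, minus strand: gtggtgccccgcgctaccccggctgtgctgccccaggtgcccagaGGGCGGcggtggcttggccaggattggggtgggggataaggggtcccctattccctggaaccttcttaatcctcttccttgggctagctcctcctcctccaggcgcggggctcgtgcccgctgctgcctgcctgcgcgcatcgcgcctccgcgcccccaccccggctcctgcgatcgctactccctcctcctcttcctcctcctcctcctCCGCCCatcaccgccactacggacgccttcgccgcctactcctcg
Gabbr1, chr17:37045716-37046015, plus strand: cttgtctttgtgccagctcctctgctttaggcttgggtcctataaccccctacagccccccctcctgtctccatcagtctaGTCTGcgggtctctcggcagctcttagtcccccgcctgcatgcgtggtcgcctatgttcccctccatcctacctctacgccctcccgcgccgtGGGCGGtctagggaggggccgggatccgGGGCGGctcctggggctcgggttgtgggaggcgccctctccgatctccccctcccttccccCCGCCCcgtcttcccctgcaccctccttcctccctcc
Grin2d, chr7:45866632-45866931, minus strand: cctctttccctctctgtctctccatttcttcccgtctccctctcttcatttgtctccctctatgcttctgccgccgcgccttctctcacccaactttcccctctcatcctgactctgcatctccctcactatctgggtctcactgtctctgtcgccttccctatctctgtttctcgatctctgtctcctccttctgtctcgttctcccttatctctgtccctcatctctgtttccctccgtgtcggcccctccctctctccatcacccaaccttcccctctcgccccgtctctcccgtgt

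The Gabra2 window held 2 GC boxes, the Gabbr1 window held 3 and 1 SMAD core, the Gria2 window held the right RE1 part, and the Grin2d window held none of these letters. The Grin2d window belongs to a start inside the gene, whose 5′ end on the minus strand is at 45878378. Its letters and GC content describe that internal start only, while the Gria2, Gabra2 and Gabbr1 windows stand at the 5′ ends of their genes. RefSeq windows were matched for 32 of the 47 receptor genes, with 39 starts among them. Of those 39 windows, 19 (48.7%) had a GC box, found in 35.7% of all 32851 promoters of the same length, and 18 (46.2%) had the SMAD core, found in 49.6%. The full SMAD palindrome GTCTAGAC and the full cAMP response element TGACGTCA, which stand in 0.213% and 1.79% of all promoters, were in none of the receptor windows, and these counts describe letters only. The shorter TGACG, which is contained in the full response element, was in 5 windows (12.8%; Gabrb2, Gabrr1, Grik2, Grin1 and Grm8) against 20.8% of all promoters. The AP-1 letters TGANTCA were in 2 (5.13%; Grin3b and Grm8) against 7.81%. The left RE1 part TTCAGCAC was in 1 window, of Grm2, and the right part in 1, of Gria2 (2.56% each), against 1.17% and 1.26% of all promoters. The receptor windows were GC-rich, with a median of 59.7% against 52.7% for all promoters and a median of 12 CG pairs against 7. The 4 windows printed had 65.7% (Gria2), 70.0% (Gabra2), 67.3% (Gabbr1) and 56.0% GC (Grin2d), an order unlike that of their transcripts, which had 36.8%, 38.4%, 53.0% and 65.0%.

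Levels are given as FPKM, fragments scaled to exon length and to library depth, so they may be compared between genes. The most abundant receptor transcripts, averaged over 12 libraries, were those of both GABA-B subunits, Gabbr1 at 68.5 and Gabbr2 at 64.8 FPKM, which pair to form 1 working receptor. Gria1 at 63.8 and Grik5 at 59.2 FPKM were close behind, and the ranges of these 4 genes overlapped over the libraries. Lower levels were those of Gria2 at 43.9 and Grin2b at 43.2, Gabra5 at 38.9, and Grm5 and Grin1 at 29.9 and 28.7 FPKM, and here too neighbours in this order had overlapping ranges, except Gabra5 and Grm5. Grin1, the NMDA subunit that every NMDA receptor contains, was thus below Grin2b in all 3 groups' means. Grin2b was above Grin2a, at 5.29 FPKM, without overlap, and Grin2a is a subunit known to gain ground as cortex matures. The leading group II metabotropic receptor was Grm3 at 6.16 FPKM.

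**Figure D1:**
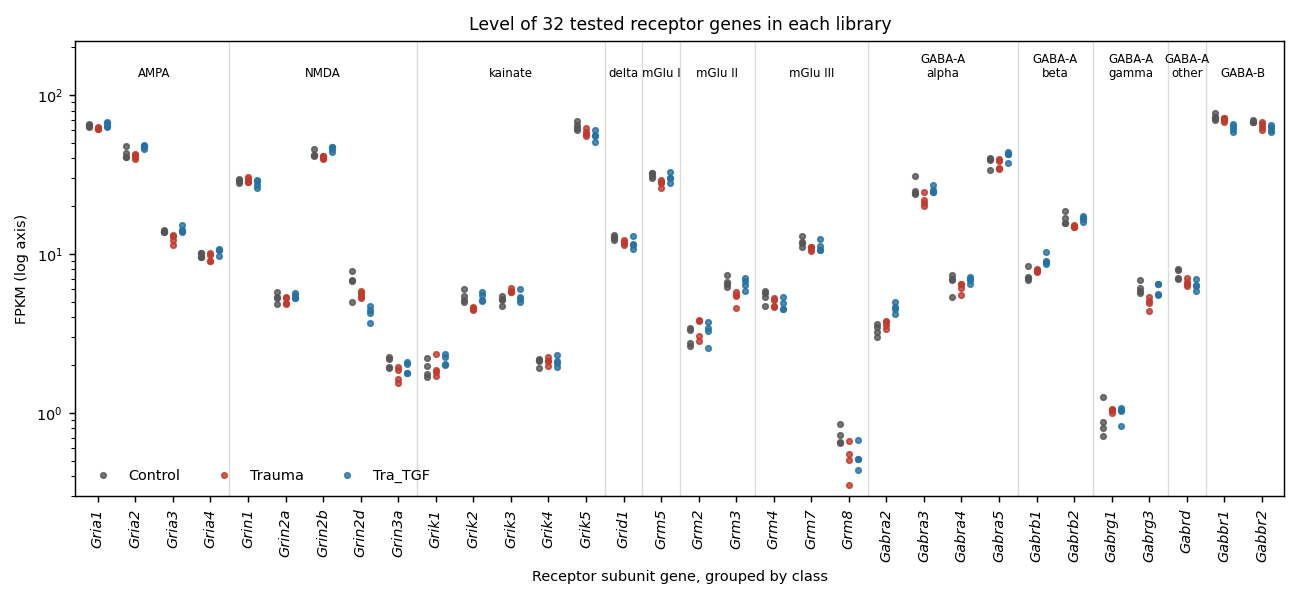
FPKM on a log axis of 32 of the 36 receptor genes with a mean of at least 0.5 FPKM, grouped by class; each point is 1 library, gray for Control, red for Trauma and blue for Tra_TGF. The genes span from 0.591 (Grm8) to 68.5 FPKM (Gabbr1), and differences between groups are small beside those between genes.

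Tests were limited to the 15016 genes with a mean of at least 0.5 FPKM, which kept 36 of the 47 receptor genes: all of the AMPA, kainate, beta, gamma, GABA-B and group I and II metabotropic genes, 5 of 7 NMDA, 5 of 6 alpha and 3 of 4 group III genes, 1 of 2 delta genes, and of 7 other GABA-A genes Gabrd alone. Among the 11 below this level, Grin2c had 15 to 53 reads a library, Gabrq 10 to 29 and Grin3b 5 to 16. Gabre, Gabrr1 and Gabrr2 had at most 11 reads in any library, Grm6 had 8 reads in the 12 libraries together and Gabra6, a cerebellar subunit, had 1. Gabrp and Gabrr3 had no read in any library, which in the shallowest library allows up to 0.0583 and 0.0461 FPKM (3 reads, counting error only).

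The libraries held 15052486 to 17381671 reads on genes, with the lowest totals in Tra_TGF (15052486 to 15880694). Control replicate 1 stood apart from its group, with a mean correlation of log2 values of 0.9428 with the other Control libraries, against 0.9507 to 0.9595 for the other 11 libraries. The summed FPKM of the 6 pan-neuronal markers was 1260 to 1320 in Control, 1110 to 1190 in Trauma and 1040 to 1080 in Tra_TGF (1 higher and 2 lower with trauma, 2 and 1 for Tra_TGF against Trauma, 1 and 3 for Tra_TGF against Control). Most of this sum was 1 gene, Tubb3, with means of 960, 842 and 739 FPKM. The median log2 fold changes of the 6 markers were -0.082, 0.017 and -0.05 in these comparisons. The 8 astrocyte markers summed to 182 to 210, 238 to 298 and 252 to 269 FPKM, with 6, 1 and 3 genes higher and 0, 3 and 0 lower in those comparisons. The 10 inhibitory neuron markers summed to 244 to 267, 287 to 315 and 262 to 289 FPKM (3 higher and 0 lower, 0 and 3, 4 and 2), and the 6 excitatory neuron markers to 166 to 178, 178 to 187 and 171 to 182 FPKM (0 and 0, 1 and 1, 2 and 1). Oligodendrocyte-lineage markers (5 of 8 tested) summed to 46.3 to 49.1, 57.5 to 64.7 and 56.9 to 63.4 FPKM (2, 0 and 3 higher and none lower), and microglial markers (3 of 7 tested) to 8.5 to 12.1, 14.2 to 15.1 and 11.0 to 14.6 FPKM (1, 0 and 0 higher). The 5 endothelial markers stayed at or below 0.429 FPKM in sum and were not tested, and the 5 fibroblast and pericyte markers were at or below 3.73 FPKM, with 2 tested and none called by limma (1, 0 and 2 at an unadjusted p of at most 0.05, and 0, 0 and 2 by voom). In the lists with no call in a comparison, the counts at an unadjusted p of at most 0.05 were 2 for excitatory neurons with trauma, and 2 and 1 for the oligodendrocyte lineage and microglia in Tra_TGF against Trauma and 1 for microglia in Tra_TGF against Control, where voom called 0, 0, 0 and 1. No gene of these lists was at 0 in all libraries. In bulk RNA, fewer cells of a type and less RNA per cell cannot be told apart, and the part of cell composition in the receptor results was not tested.

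Trauma against Control asks how injury alone moved the receptor genes at 24 h. None of the 36 receptor genes passed limma's test at an adjusted p of at most 0.05 in either direction, where 3.5% of all genes tested were called higher and 2.32% lower. At an unadjusted p of at most 0.05 there were 12 receptor genes (33.3%, against 19.4% of all genes), 11 of them with lower values in Trauma (30.6%, against 9.3%). A test on the reads recovered from the FPKM values (limma's voom) called 1 higher (Grik3) and 4 lower (Grm3, Grm5, Gabrg3 and Grik2), 13.9% of the receptor genes against 7.51% of all genes under that test. The log2 fold change was above 0 for 9 of 36 genes (25.0%), against 49.3% of all genes, and the median was -0.083 against -0.0025 for all genes. In 6 receptor genes all Trauma libraries lay below all Control libraries (16.7%, against 5.93% of all genes), and in Grik3 they lay above (2.78%, against 6.87%).

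The genes nearest to the threshold were a metabotropic receptor, a gamma subunit and a kainate subunit. Grm3, a group II receptor that lowers cyclic AMP and is found on neurons and astrocytes, had 6.16, 6.48, 7.41 and 6.64 FPKM in Control and 5.52, 5.73, 5.42 and 4.55 in Trauma. Its groups did not overlap, and its log2 fold change was -0.32 (SE 0.0852, adjusted p = 0.0503). Gabrg3 had 6.92, 5.66, 5.83 and 6.14 FPKM in Control and 5.06, 4.95, 5.35 and 4.40 in Trauma, again without overlap (log2 fold change -0.30, SE 0.0836, adjusted p = 0.0608). Grik2, a pore-forming kainate subunit, had 5.46, 5.14, 5.01 and 6.06 FPKM against 4.57, 4.45, 4.61 and 4.49 (log2 fold change -0.24, SE 0.0676, adjusted p = 0.0613). Grm5, the main group I receptor of these cells, had 32.3, 31.1, 30.2 and 32.2 FPKM in Control against 28.5, 29.1, 28.1 and 26.1 in Trauma (log2 fold change -0.16, SE 0.0502, adjusted p = 0.088). The 4 Trauma libraries of each of these genes were all below the 4 Control libraries, in a region of p-values where the test did not call them. After a correction for GC content described below, 5 genes passed in this comparison (13.9%, against 8.49% of all genes after that correction), all lower: Gabrg3 (-0.31, adjusted p = 0.0228), Grm3 (-0.35, 0.0254), Grik2 (-0.22, 0.0325), Gabrb2 (-0.16, 0.036) and Grm5 (-0.17, 0.0428). Without Control replicate 1 there were 2 calls, Grm3 and Grin2d, both lower, and without Tra_TGF replicate 1, which enters only the shared spread, there was 1. These were 5.56% and 2.78% of the receptor genes, against 5.57% and 5.2% of all genes in those fits.

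**Figure D2:**
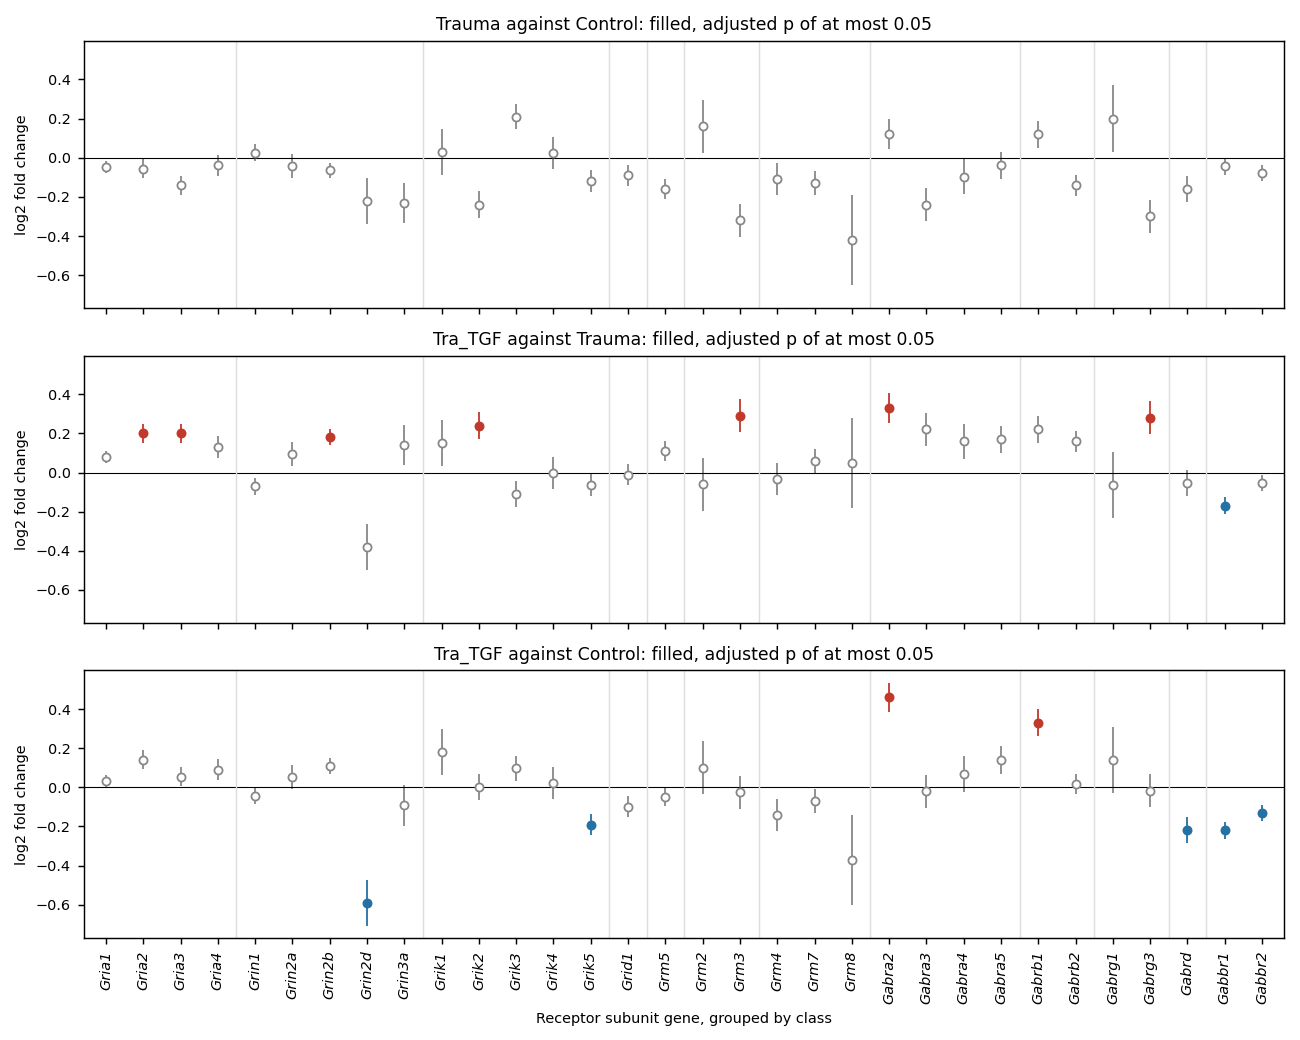
The log2 fold change of 32 tested receptor genes in the 3 comparisons, with its standard error as a bar; filled points passed limma's test (red higher, blue lower) and open points did not. There are 0 filled points for Trauma against Control, 8 for Tra_TGF against Trauma and 7 for Tra_TGF against Control.

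Tra_TGF against Trauma asks how TGF-β1 moved injured neurons. Here 10 of 36 receptor genes were higher (27.8%, against 4.64% of all genes) and 1 was lower (2.78%, against 7.63%). The risers were 2 AMPA, 1 NMDA, 1 kainate and 1 metabotropic glutamate gene and 5 GABA-A genes, and the only gene that fell was Gabbr1. All changes were small, with the risers between 1.13 and 1.26 times the Trauma mean and Gabbr1 at 0.888 times. The Tra_TGF libraries lay wholly above the Trauma libraries for 14 genes (38.9%, against 10.6% of all genes) and wholly below for 2 (5.56%, against 11.8%). The log2 fold change was above 0 for 24 of 36 genes (66.7%, against 51.1%), with a median of 0.121 against 0.0052 for all genes. This comparison and the one before share the Trauma libraries, so that low values there move both, and opposite signs in them are not separate results.

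These counts depended on the processing and on single libraries. After correction of each library for GC content none of the 36 genes was called, where 5.57% of all genes were. The median was then 0.063, and the log2 fold change was above 0 for 30 of 36 genes in place of 24. The lowest adjusted p-values were 0.0737 for Grik5, whose log2 fold change went from -0.06 to 0.16, 0.0959 for Grin2b and 0.0963 for Grm3. With 1 library left out at a time the count ran from 1 to 15: 15 without Control replicate 1, 6, 3, 6 and 3 without Trauma replicates 1 to 4, and 1 and 3 without Tra_TGF replicates 2 and 4. Leaving out any other library gave 8 to 10 calls. The share of all genes called in these fits ran from 4.32% without Tra_TGF replicate 2 to 17.0% without Control replicate 1. Of the 11 genes 1 was called in all 12 of these fits. Quantile normalization called 14 higher and 1 lower, and over all genes it turned 696 higher and 1146 lower into 1125 higher and 927 lower.

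Of the AMPA receptor genes, Gria2 and Gria3 rose with TGF-β1 and Gria1 and Gria4 did not pass the test. Gria2, the subunit that limits calcium entry, on chromosome 3 (80681450 to 80802835), had 47.6, 41.0, 40.8 and 43.5 FPKM in Control, 42.4, 41.0, 42.0 and 39.5 in Trauma, and 47.6, 48.7, 45.8 and 47.3 in Tra_TGF. All Tra_TGF libraries were above all Trauma libraries, while Control overlapped both (log2 fold change 0.20, SE 0.0482, adjusted p = 0.0218). Gria3, on the X chromosome (41400854 to 41678601), had 14.1, 13.7, 13.8 and 14.0 FPKM in Control, 13.1, 13.2, 11.5 and 12.3 in Trauma, and 14.2, 15.2, 14.0 and 13.8 in Tra_TGF. Trauma was the lowest group without overlap with either other group, and Tra_TGF overlapped Control (Tra_TGF against Trauma 0.20, SE 0.0489, adjusted p = 0.0247). Both calls were lost after GC correction, where the log2 fold changes against Trauma were 0.006 for Gria2 (adjusted p = 0.952) and 0.052 for Gria3 (0.652). Gria1, the most abundant, had 63.9, 65.8, 64.5 and 63.3 FPKM in Control, 61.8, 61.1, 62.9 and 61.6 in Trauma, and 63.0, 64.0, 67.8 and 66.3 in Tra_TGF. Its Tra_TGF libraries lay just above those of Trauma, but the log2 fold change of 0.08 did not pass (adjusted p = 0.103). The summed AMPA level was 131 ± 2.63, 125 ± 1.35 and 137 ± 1.87 FPKM in Control, Trauma and Tra_TGF (SD, n = 4).

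Among NMDA receptor genes, Grin2b rose. It encodes the glutamate-binding subunit that dominates young neurons and lies on chromosome 6 (135713233 to 136173511). It had 45.9, 41.4, 42.1 and 42.2 FPKM in Control, 39.6, 41.6, 41.3 and 40.3 in Trauma, and 46.2, 47.0, 47.0 and 43.8 in Tra_TGF (log2 fold change 0.18, SE 0.0399, adjusted p = 0.0178). The Trauma and Tra_TGF libraries did not overlap. The log2 fold change was 0.11 after GC correction (adjusted p = 0.0959) and 0.018 after a correction for exon length (0.799). The obligatory Grin1 had means of 28.9 ± 0.572, 29.3 ± 1.13 and 27.8 ± 1.41 FPKM and Grin2a 5.31 ± 0.395, 5.11 ± 0.247 and 5.45 ± 0.213 (SD, n = 4), and neither passed in any comparison. Grin2d, another glutamate-binding subunit, had 5.72, 5.48, 5.27 and 5.85 FPKM in Trauma against 3.67, 4.26, 4.71 and 4.47 in Tra_TGF. Those groups were apart, with a log2 fold change of -0.38 and an adjusted p of 0.0565.

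Of the kainate receptor genes Grik2 rose, from its Trauma values above to 5.06, 5.52, 5.11 and 5.80 FPKM in Tra_TGF (log2 fold change 0.24, SE 0.0676, adjusted p = 0.0379). These values lay above all Trauma libraries and overlapped those of Control, and the fitted difference from Control was 0.0025. After GC correction the log2 fold change of Grik2 against Trauma was 0.062 (adjusted p = 0.576). Grik5, which encodes a high-affinity subunit that needs a partner such as Grik2 to reach the surface, was far more abundant at 59.2 FPKM against 5.11, and had a log2 fold change of -0.06 (adjusted p = 0.497). Grid1, of the delta receptors that bridge synapses through cerebellins, had 12.2, 13.1, 12.6 and 12.9 FPKM in Control, 12.0, 12.2, 11.7 and 11.4 in Trauma, and 11.4, 13.1, 11.6 and 10.8 in Tra_TGF. The main limma test called Grid1 in no comparison. In the limma fit without Tra_TGF replicate 2 it was called lower in Tra_TGF against Control (-0.15, adjusted p = 0.05). Of the metabotropic receptors Grm3 rose, to 5.81, 6.79, 6.34 and 7.05 FPKM in Tra_TGF, all above its Trauma libraries and overlapping Control (log2 fold change 0.29, SE 0.0852, adjusted p = 0.0448). After GC correction its log2 fold change was 0.26 (adjusted p = 0.0963). Grm5 had 29.9, 32.8, 28.0 and 30.0 FPKM in Tra_TGF, which overlapped both other groups (adjusted p = 0.154 against Trauma). Grm7, the leading group III receptor, which acts in the presynaptic terminal, had 11.0, 11.8, 11.8 and 12.9 FPKM in Control, 10.4, 11.1, 11.0 and 10.7 in Trauma, and 10.5, 10.7, 12.5 and 11.3 in Tra_TGF. It also passed in no comparison.

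Within the GABA-A receptor, 5 of 12 tested genes rose and none fell, where 4.64% of all genes were called higher and 7.63% lower. None of these 12 was called after GC correction. Gabra2, an alpha subunit enriched in young neurons and at the axon initial segment, on chromosome 5 (70957597 to 71095849), had 3.62, 3.49, 3.23 and 3.01 FPKM in Control, 3.72, 3.36, 3.79 and 3.59 in Trauma, and 4.49, 4.99, 4.19 and 4.64 in Tra_TGF. It was highest in Tra_TGF without overlap, and at 1.26 times Trauma it rose by the greatest fold of the 10 genes (log2 fold change 0.33, SE 0.0756, adjusted p = 0.0183). After GC correction its log2 fold change was 0.16 (adjusted p = 0.238). Gabra5, the most abundant alpha gene, whose receptors lie largely outside synapses, had 40.1, 39.9, 33.7 and 38.9 FPKM in Control, 38.6, 39.6, 34.3 and 35.0 in Trauma, and 42.5, 43.7, 37.2 and 42.8 in Tra_TGF. Its libraries overlapped and it was not called (log2 fold change 0.17, adjusted p = 0.12).

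Gabrg3 had 5.58, 6.45, 5.55 and 6.45 FPKM in Tra_TGF, above its 4 Trauma libraries and within the Control range or just below it (log2 fold change 0.28, SE 0.0836, adjusted p = 0.0483). After GC correction its log2 fold change was 0.18 (adjusted p = 0.177). Gabrg3 sat just inside the threshold, and Gabrb1, at 0.0579, sat just outside.

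Of the 2 GABA-B genes, Gabbr1 fell and Gabbr2 did not pass the test. Gabbr1, which binds GABA, on chromosome 17 (37045966 to 37075067), had 69.3, 77.4, 73.0 and 71.9 FPKM in Control, 71.6, 71.4, 67.9 and 70.0 in Trauma, and 64.1, 61.0, 65.6 and 58.3 in Tra_TGF. The Tra_TGF libraries were below all 8 others (against Trauma -0.17, SE 0.0436, adjusted p = 0.0269). The call was lost after GC correction (adjusted p = 0.141) and under quantile normalization (0.153). Gabbr2, the partner that couples the receptor to G proteins, had 67.4, 70.2, 67.7 and 67.4 FPKM in Control, 66.2, 67.5, 63.2 and 60.3 in Trauma, and 64.7, 60.4, 63.0 and 59.0 in Tra_TGF. Trauma and Tra_TGF overlapped, and the log2 fold change of -0.05 was not called (adjusted p = 0.412).

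**Figure D3:**
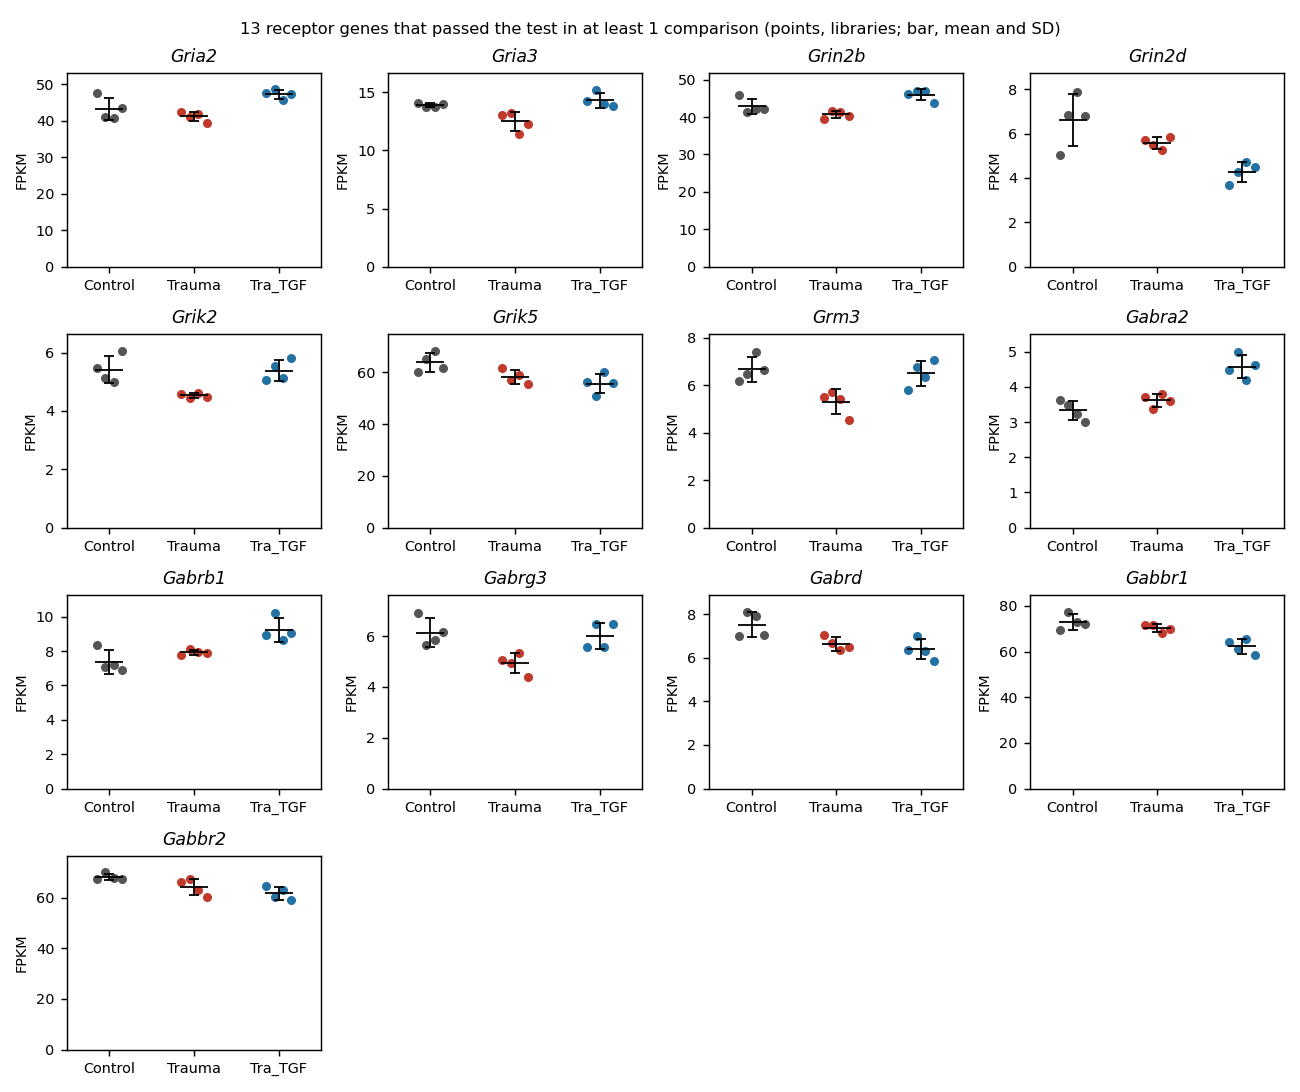
FPKM in each library of 13 of the 16 receptor genes that passed limma's test in at least 1 comparison, with a panel for each gene; points are libraries, and the bar is the mean with its SD. Gabra2 is highest and Gabbr1 lowest in Tra_TGF, while for Grm3, Gabrg3 and Grik2 the Trauma libraries lie below both other groups.

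Tra_TGF against Control shows which receptor genes differed from uninjured cultures after injury with TGF-β1, so injury and TGF-β1 cannot be told apart in it. In this comparison 3 of 36 genes were higher (8.33%, against 6.85% of all genes) and 5 were lower (13.9%, against 9.46%). With levels divided by the library factors used in the test, the groups did not overlap for 3 genes in each direction. These were 8.33% each way, against 8.64% of all genes higher and 9.38% lower, so that these shares were near the background. The log2 fold change was above 0 for 21 genes (58.3%, against 50.7%) and its median was 0.027 against 0.0031. Quantile normalization gave 7 higher and 1 lower, and over all genes 1134 higher and 918 lower in place of 1029 and 1420. Across the fits that each left out 1 library the count was 5 to 11, the 11 without Control replicate 1, and 5 genes, Gabbr1, Gabra2, Gabrb1 and Grin2d among them, were called in all 12. In those fits 13.9% to 30.6% of the receptor genes were called, against 9.51% to 22.8% of all genes.

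The 3 genes that were higher are all GABA-A subunits. Gabra2 was 1.37 times its Control level (log2 fold change 0.46, SE 0.0756, adjusted p = 0.00258). Gabrb1, on chromosome 5 (71658113 to 72149037), had 8.37, 7.06, 7.17 and 6.88 FPKM in Control, 7.76, 8.09, 7.95 and 7.88 in Trauma, and 8.92, 10.2, 8.65 and 9.06 in Tra_TGF. Tra_TGF was above both other groups without overlap, and 1.26 times Control (log2 fold change 0.33, SE 0.0679, adjusted p = 0.00754).

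The largest difference of the 8 genes called was that of Grin2d, on chromosome 7 (45831883 to 45878378), which had 5.02, 6.84, 7.86 and 6.77 FPKM in Control, 5.72, 5.48, 5.27 and 5.85 in Trauma, and 3.67, 4.26, 4.71 and 4.47 in Tra_TGF. The Tra_TGF libraries were below all others, at 0.662 times Control (log2 fold change -0.59, SE 0.118, adjusted p = 0.00653). Grin2d overlaps Kdelr1 on the other strand, which had up to 1234 reads a library, and without a stated strand setting reads in the shared part cannot be told apart. Gabbr1 was at 0.861 times Control (-0.22, SE 0.0436, adjusted p = 0.00718) and Gabbr2 at 0.914 times (-0.13, SE 0.0407, adjusted p = 0.048), both without overlap between the groups. Their summed level was 141 ± 4.64, 135 ± 4.47 and 124 ± 5.62 FPKM in Control, Trauma and Tra_TGF (SD, n = 4).

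Gabrd, whose receptors lie outside synapses and carry tonic inhibition, had 7.01, 8.10, 7.90 and 7.04 FPKM in Control, 7.04, 6.68, 6.33 and 6.49 in Trauma, and 6.37, 7.00, 6.32 and 5.87 in Tra_TGF. In deposited FPKM the highest Tra_TGF library was just below the lowest Control library. With levels divided by the library factors these 2 groups overlapped. Tra_TGF also overlapped Trauma (against Control -0.22, SE 0.0669, adjusted p = 0.0455). Grik5, on chromosome 7 (25009849 to 25072346), had 60.2, 65.2, 68.3 and 61.7 FPKM in Control, 61.7, 56.9, 58.8 and 55.3 in Trauma, and 56.1, 50.7, 60.0 and 55.7 in Tra_TGF. Its log2 fold change against Control was -0.19 (SE 0.0559, adjusted p = 0.0404), and with levels divided by the library factors Tra_TGF and Control overlapped. After the GC correction Gabra2 (0.30, adjusted p = 0.0186) and Gabrb1 (0.20, 0.0336) were still higher and Gabbr1 (-0.21, 0.00502) and Grin2d (-0.31, 0.0348) lower, Grm5 was called lower as well, and Gabbr2, Gabrd and Grik5 were not called. These 5 calls were 13.9% of the receptor genes, against 13.7% of all genes after that correction. Grik5 then changed sign, to 0.01.

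GC content moved with the direction of the receptor genes. Each gene was given the GC of its longest annotated transcript, and the tested receptor genes had a median of 46.4% (35.3% to 65.0%) against 49.6% for all genes. For Tra_TGF against Trauma, 24 of the 25 receptor genes below that median of all genes had a log2 fold change above 0, as did 70.5% of all genes on that side, and the 10 risers were all there. None of the 11 receptor genes on the GC-richer side had one above 0, where 31.4% of all genes did, and Gabbr1 was among them. For Tra_TGF against Control, 18 of 25 and 3 of 11 were above 0 (65.6% and 35.9% of all genes), with the 3 higher genes on the GC-poorer side and the 5 lower ones on the richer side. For Trauma against Control, 5 of 25 and 4 of 11 were above 0 (45.7% and 53.0%). Spearman's rho between GC and log2 fold change, across genes of the same libraries and given as a description, was 0.088, -0.465 and -0.359 over the 14699 genes with a known GC, and 0.09, -0.72 and -0.55 over the 36 receptor genes. The mean GC of genes weighted by their reads was 49.65, 50.16, 50.24 and 49.94% in the Control libraries, 50.02 to 50.12% in Trauma and 49.34 to 49.73% in Tra_TGF. Control replicate 1 lay inside the Tra_TGF range, and what part GC had in the receptor changes was not tested beyond the corrected values given above. The GC-poor genes included Gria2 (36.8%), Grik2 (37.9%) and Gabra2 (38.4%), and the GC-rich ones Gabbr2 (56.0%), Grik5 (61.7%) and Grin2d (65.0%). The receptor genes were also long, with a median exon length of 6703.5 bp against 3865 bp, and a correction for length left 4 calls in Tra_TGF against Trauma, 3 higher, Gabra2 and Grm3 among them, and Gabbr1 lower. That was 11.1% of the receptor genes, near the 8.53% of all genes called after that correction.

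**Figure D4:**
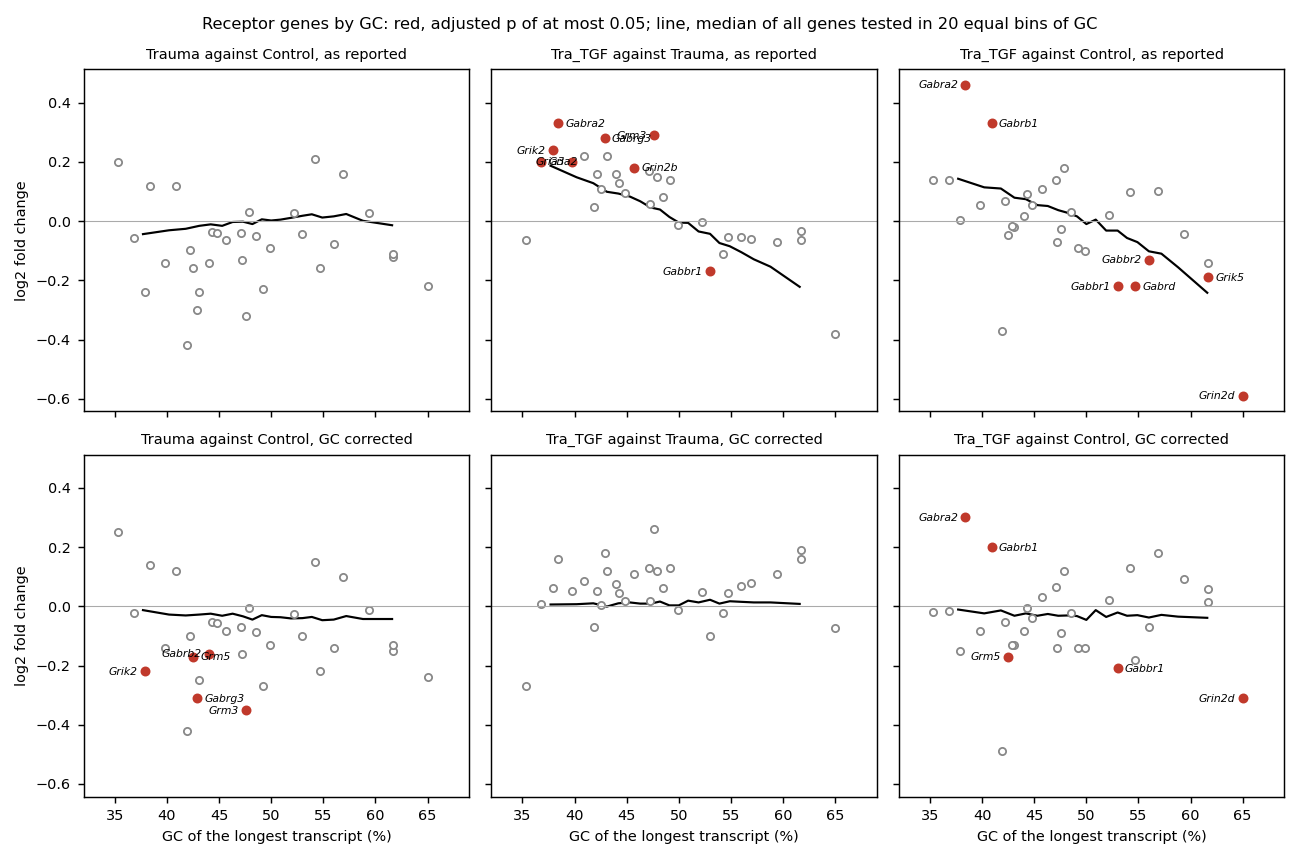
The log2 fold change of 32 tested receptor genes against the GC of the longest transcript, for the 3 comparisons as reported (upper row) and after correction of each library for GC (lower row); red points passed limma's test, and the line joins the medians of all genes in 20 equal bins of GC. In the Tra_TGF comparisons of the upper row the points and the line slope downward, and after correction 0 red points are left for Tra_TGF against Trauma and 5 for Tra_TGF against Control.

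Subunit composition was compared as shares of summed FPKM within a receptor, with exact two-sided permutation tests over 4 against 4 libraries. In these the smallest p possible is 0.0286, and 36 tests were run. The groups were apart in 3 of them, each at that smallest p, and none passed after adjustment (adjusted p = 0.281). At that smallest p a share can pass only if most of the 36 tests reach it. The adjusted values therefore cannot decide whether these shares differed. The share of Gabrd in Gabrd and the gamma subunits was 22.1% ± 2.61 in Control, 22.1% ± 1.32 in Trauma and 18.9% ± 1.2 in Tra_TGF (SD, n = 4), a difference of -3.21 percentage points for Tra_TGF minus Trauma. Gabbr1 made up 51.7% ± 0.725, 52.2% ± 1.03 and 50.2% ± 0.617 of the GABA-B transcripts, with Tra_TGF below Trauma in every library. Slc12a5, the chloride exporter KCC2, made up 92.1% ± 0.951, 91.5% ± 0.58 and 90.6% ± 0.427 of its sum with the importer Slc12a2, with every Tra_TGF library below every Control library, although the nearest both rounded to 91.0%.

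The other shares overlapped between the groups in all comparisons. Gria2 was 32.9% ± 1.74, 33.0% ± 0.691 and 34.5% ± 1.03 of AMPA transcripts, and Grin2a was 11.0%, 11.2% and 10.6% of its sum with Grin2b. Grik4 and Grik5 made up 84.1% ± 1.4, 83.0% ± 0.803 and 81.6% ± 0.964 of kainate transcripts, and Gabra5 45.6%, 47.5% and 46.7% of alpha transcripts. Group II receptors were 15.7%, 15.6% and 16.4% of the metabotropic sum and the Grin3 genes 2.62%, 2.31% and 2.55% of the NMDA sum. GABA-A transcripts were 40.9% ± 1.63, 40.2% ± 0.805 and 42.5% ± 1.76 of the sum of GABA-A and ionotropic glutamate transcripts. The sums behind the last of these shares were 205 ± 13.9, 189 ± 8.44 and 217 ± 12.3 FPKM for GABA-A, with 86.3 ± 0.585, 82.9 ± 1.49 and 86.2 ± 1.99 for NMDA and 78.4 ± 3.11, 72.7 ± 2.7 and 70.7 ± 3.93 for kainate receptors.

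**Figure D5:**
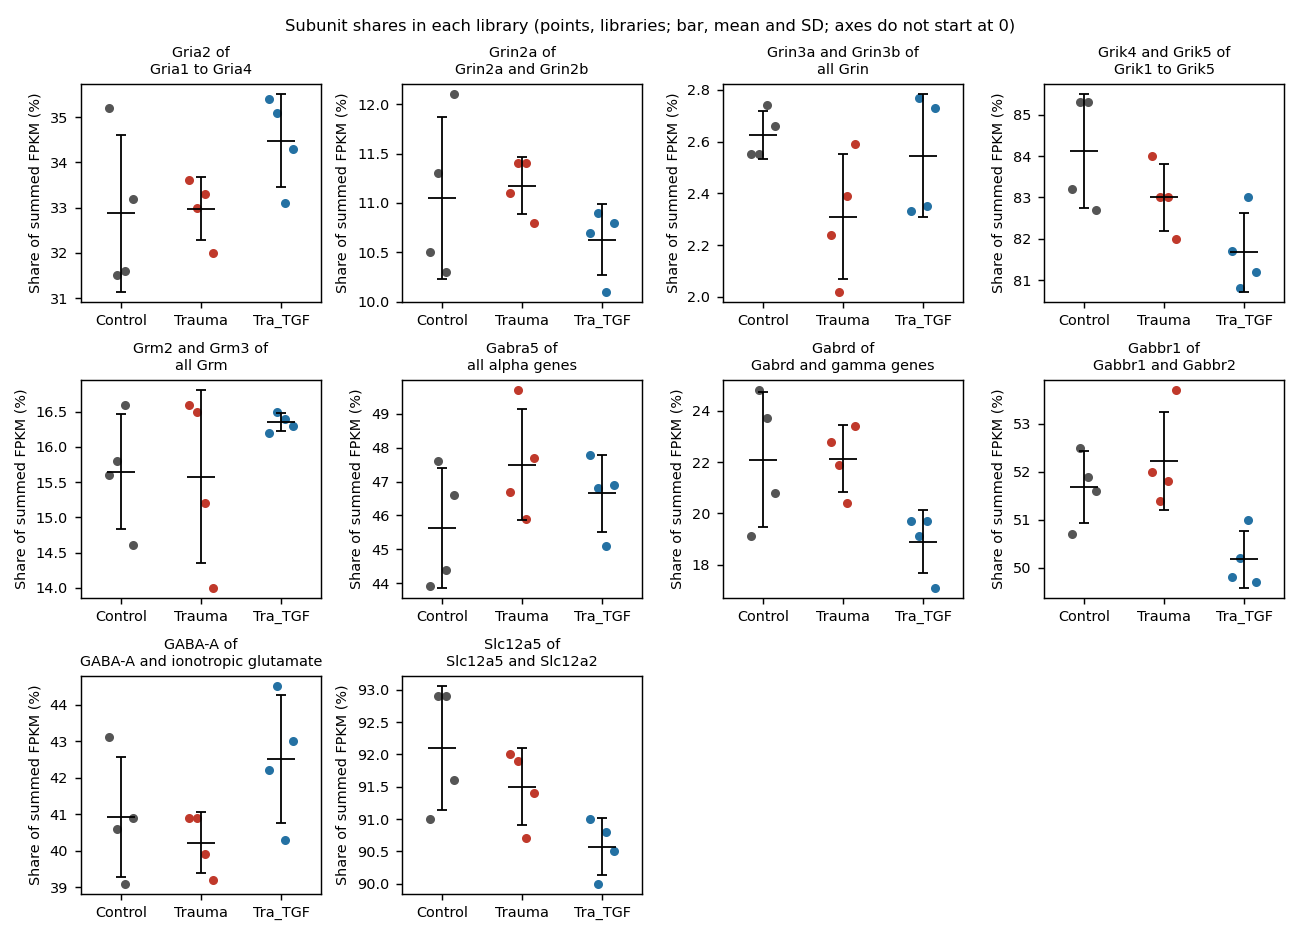
Of the 12 subunit shares, 10, in percent of summed FPKM, in each library; points are libraries and the bar is the mean with its SD, on axes that do not start at 0. The Gabrd and Gabbr1 shares are the ones whose Tra_TGF libraries all lie below Trauma, and the Slc12a5 share the one where they lie below Control.

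Many GABA-A genes stand in clusters, and some neighbours overlap. On chromosome 5 Gabrg1, Gabra2, Gabra4 and Gabrb1 lie between 70751047 and 72149037 (GRCm38). For Tra_TGF against Trauma, 1 of these 4, Gabra2, rose, and the log2 fold changes of Gabra4, Gabrb1 and Gabrg1 were 0.16, 0.22 and -0.06. Gabra4 and Gabrb1 overlap on opposite strands, so part of their reads cannot be told apart without a stated strand setting. Gabrb1 was called against Control, while Gabra4 had 6.65 ± 0.886, 6.14 ± 0.422 and 6.87 ± 0.304 FPKM (SD, n = 4) and was not.

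Genes that work with the receptors were taken from 9 lists. Of 10 tested AMPA auxiliary subunits, which steer AMPA receptors to the synapse, Cnih2 fell in Tra_TGF against Trauma (-0.24, adjusted p = 0.018) and against Control (-0.33, 0.00262), and Cacng2, stargazin, fell against Control (-0.13, 0.0305). None was called for Trauma against Control by limma or voom, with 1 at an unadjusted p of at most 0.05, and Cacng7 and Cacng8 were listed at 0 in all libraries. Of 6 tested kainate and delta receptor partners, Neto2, a kainate auxiliary subunit, rose in Tra_TGF against Trauma (0.27, adjusted p = 0.0444), and none was called in the other comparisons by either test, with 1 at an unadjusted p of at most 0.05 in each. Of 8 GABA-A scaffold and assembly genes, 1 fell with trauma, 1 rose in Tra_TGF against Trauma, and 1, Lhfpl4, fell in Tra_TGF against Control (-0.25, adjusted p = 0.0188). The GABA-B auxiliary subunit Kctd12 fell with trauma (-0.26, adjusted p = 0.0122) and in Tra_TGF against Control (-0.27, 0.00557), Kctd8 fell in the latter (-0.76, 0.0238) and Kctd16 rose in Tra_TGF against Trauma (0.28, 0.0413). The median log2 fold changes of these 4 lists for Tra_TGF against Trauma were 0.03, -0.02, -0.02 and -0.01, against 0.121 for the receptor genes and 0.0052 for all genes.

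Of 13 tested genes of glutamate transport and metabolism, 4 rose and 3 fell with trauma, 3 fell in Tra_TGF against Trauma, and 3 rose and 5 fell in Tra_TGF against Control. Glul, the astrocytic enzyme that turns glutamate into glutamine, was at 105 ± 9.25, 138 ± 5.92 and 77.8 ± 2.08 FPKM in Control, Trauma and Tra_TGF (SD, n = 4). It rose with trauma (0.41, adjusted p = 0.00121) and fell in Tra_TGF against both Trauma (-0.83, 2.6e-05) and Control (-0.41, 0.000782). Slc1a3, a glial glutamate transporter, rose with trauma (0.36, adjusted p = 0.000624) and in Tra_TGF against Control (0.25, 0.00377), and the neuronal transporter Slc1a6 fell in both (-0.74, 0.00365 and -0.60, 0.00624), as did Got1 (-0.20, 0.0282 and -0.27, 0.00331). Slc17a7, the vesicular glutamate transporter of cortical neurons, and Glud1 fell in Tra_TGF against Trauma (-0.17, 0.0387 and -0.12, 0.0391). The astrocyte marker sums given above were higher than in every Control library in every Trauma library and in every Tra_TGF library. Glul, by contrast, was lowest in Tra_TGF, and the part of astrocyte content in these changes was not tested.

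Of 7 tested genes of GABA synthesis and transport, 1 rose with trauma, the synthetic enzyme Gad1 (0.20, adjusted p = 0.0205), and 1 fell. In Tra_TGF against Trauma Slc32a1, which loads GABA into vesicles, fell (-0.22, 0.0182), as did the transporter Slc6a11 (-0.17, 0.0113). Against Control Gad1 and Gad2 rose (0.20, adjusted p = 0.0106 and 0.23, 0.0104) and 2 genes fell, Slc32a1 among them (-0.35, 0.000861). Of 5 chloride transport genes, Slc12a5 fell (-0.27, adjusted p = 0.00925), Wnk2 fell (-0.16, 0.0471) and Wnk1 rose (0.20, 0.0239) in Tra_TGF against Control, and limma called none in the other comparisons, with 3 and 1 at an unadjusted p of at most 0.05 and 0 and 1 by voom. Of 14 receptor scaffolds, Homer3 rose with trauma (0.44, adjusted p = 0.0373), Dlg4, the postsynaptic scaffold PSD-95, fell in Tra_TGF against Trauma (-0.24, 0.0406), and against Control Shank1 fell (-0.28, 0.0065) and Dlg2 rose (0.19, 0.0307). The 3 RNA editing genes, whose products recode receptor transcripts such as Gria2, were not called in any comparison by limma or voom, with 0, 1 and 0 at an unadjusted p of at most 0.05. The median log2 fold changes of these 5 lists for Tra_TGF against Trauma ran from -0.05 to 0.04. After the GC correction all 9 related-gene calls followed by the rule of at most 4 per list held for Trauma against Control, but 3 of 10 against Trauma and 11 of 18 against Control did. Against Trauma, the calls of Cnih2 (adjusted p = 0.968), Neto2 (0.616), Kctd16 (0.0818), Slc17a7 (0.698) and Slc6a11 (0.198) were lost, and those of Glul, Glud1 and Dlg4 held. Against Control, the calls of Cnih2 (adjusted p = 0.114), Shank1 (0.13), Dlg2 (0.217), Slc32a1 (0.113), Gad1 (0.0504) and Wnk1 (0.0685) were lost. The correction also turned the sign of Slc32a1 against Trauma, to 0.01, and of Wnk2 against Control, to 0.06.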

How the data were processed

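Polyadenylated RNA of 12 libraries was sequenced on an Illumina NovaSeq as paired-end reads. Per the study's methods and the labels, the authors aligned reads with HISAT2 2.0.5 to mm10 and counted them per gene with featureCounts, and the strand setting of counting is not given in the sources used here. The methods speak of fewer samples than the table holds. The authors deposited 1 table of FPKM values with each gene's exon length, so levels below depend on their annotation. Whole reads were recovered from the FPKM steps and lengths (100% of values within 0.02 read), which gave the depth of 15052486 to 17381671 reads per library. The FPKM values were already scaled so that median-of-ratios factors over all genes are equal, and factors over the tested genes were 0.99906 to 1.0115. Levels are printed as deposited, and counts of genes whose groups did not overlap used levels divided by these factors.

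The main test was limma 3.58.1 in R 4.3.3 (trended empirical Bayes) on log2(FPKM/factor + 0.1), with 1 fit of 12 libraries, genes with a mean of at least 0.5 FPKM, and Benjamini-Hochberg adjustment over all 15016 genes of a comparison at 0.05. Fold changes on this scale understate low genes. It was tested on simulated data with larger changes than nearly all receptor calls here and no GC difference between libraries. That test does not bear on small calls or on calls that move with GC. Shares used exact permutation tests. Tables were made in Python 3.11.15 with pandas 2.3.3 and numpy 2.4.6. GC came from the longest GENCODE transcript and corrections for GC or length were loess fits per library (span 0.3). Alternatives were another pseudocount, no filter, quantile normalization, a fit of 2 groups, a replicate block, those corrections, voom on the recovered reads and each library left out, and after the data were seen FPKM as deposited was added. The receptor genes, the 9 lists of related genes and the 8 marker lists were chosen with earlier results of these data known. Values in every library were given for each receptor gene called in any comparison and for the most abundant gene of each class, with at most 4 called genes per related list and comparison, by smallest adjusted p. Some receptor and related genes are counted but not reported here by name, in the text or the plots. Sequences are from RefSeq, and receptor genes without a window there (Gria1, Gria3, Grin2b, Grm4, Grin2a, Gabrd, Grm5, Grid1, Grin3a and Grik1 among them) have none shown.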

Additional observations from a re-analysis of the deposited data

Results flagged for a closer look

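The Gabbr2 level in Control replicate 2, 70.2 FPKM, stood far from the other 3 Control libraries, which lay between 67.4 and 67.7 FPKM. Its gap was 0.874 of the whole range of the group, above Dixon's critical value for 4 samples. Among the 99 groups of 4 libraries checked it was the only such value, and chance gives about 1 in 20.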

How the results depend on the processing

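For Trauma against Control, where limma called 0 receptor genes, there was 1 call on FPKM as deposited (added after the data were seen), 3 and 2 after length correction without and with a replicate block, 5 and 8 after GC correction without and with the block, 5 with voom, and 0 to 2 with 1 library left out. These were 2.78% of the receptor genes as deposited (6.0% of all genes), and 8.33% and 5.56% after length correction (6.64% and 6.18%). After GC correction they were 13.9% and 22.2% (8.49% and 9.15% of all genes), and with voom 13.9% (7.51%). With 1 library left out at most 5.56% were called, against 3.09% to 5.57% of all genes. For Tra_TGF against Trauma, with 11 calls, there were 5 without a filter, 4 and 3 after length correction without and with the block, 0 after GC correction with or without it, and 1 to 15 with 1 library left out. Without a filter these were 11.1% of the receptor genes (2.99% of all genes), and after length correction 11.1% and 8.33% (8.53% and 5.83%). After GC correction 5.57% and 5.03% of all genes were called without and with the block. With 1 library left out the shares ran from 2.78% to 41.7%, against 4.32% to 17.0% of all genes. The median log2 fold change of 0.121 moved to 0.039 after length and 0.063 after GC correction, with or without the block. For Tra_TGF against Control, with 8 calls, there were 5 without a filter, in a fit of the 2 groups and after GC correction with or without the block, and 5 to 11 with 1 library left out. The 5 calls were 11.1% of the receptor genes without a filter (4.92% of all genes) and 13.9% in the 2-group fit (10.1%). After GC correction they were 13.9%, against 13.7% of all genes without and 13.9% with the block. With 1 library left out the shares ran from 13.9% to 30.6%, against 9.51% to 22.8% of all genes. The median of 0.027 changed sign, to -0.023 after length and -0.03 after GC correction, with or without the block, and ran from -0.001 to 0.06 with 1 library left out. After GC correction Grik5 reversed to 0.013 and Wnk2 to 0.059 against Control, and Slc32a1 to 0.014 against Trauma, with and without the block. The cause of these moves was not tested. The number of subunit shares whose groups were apart, 0, 2 and 1 in the order of the report, ran from 0 to 1, 2 to 6 and 1 to 3 with 1 library left out. Same-numbered libraries correlated at -0.009 to 0.076 in their deviations from the group means, with 0 of 4 pairs over 0.1 in each comparison. Libraries with different numbers correlated at -0.091 to 0.073. Both ranges lie near 0 and overlap, so this check cannot decide whether the numbers pair the libraries. The block alone gave 0, 10 and 9 calls. The last 2 were 27.8% and 25.0% of the receptor genes, and 5.2%, 10.2% and 14.8% of all genes were called. At this depth 11 receptor genes were too low to test.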
